A study of Macaca mulatta with 24 samples.

Results

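The circadian clock genes examined here were PER1, PER2, PER3, CRY1, CRY2, ARNTL (also called BMAL1), CLOCK, NR1D1, NR1D2 and DBP, taken as every transcript probe that carried one of these symbols. Of these 10 genes, 9 were found among the 16094 gene names on the array, with 15 of its 43603 probes, and no probe was named CLOCK. The expression of these probes was measured in colon from 24 young-adult male rhesus macaques, with 1 single-colour (Cy3) Agilent array for each animal. Total-body irradiation (TBI) is a single uniform exposure of the whole animal, given here as 6.7 or 7.4 Gy of cobalt-60 gamma rays. There were 4 sham-irradiated controls, labelled day 4, which served as the baseline for every day and dose. There were 4 animals on day 4 and 4 on day 7 after each dose, and 2 animals on day 12 after each dose. The animals lived under a regular light and dark cycle. The hour of irradiation and the hour of tissue collection are not given in the sources used here. Pieces of whole gut wall were extracted, so fewer cells of a type and less RNA per cell cannot be told apart.

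The molecular clock is a feedback loop that runs in most cells. ARNTL and CLOCK form a transcription factor that switches on the period genes (PER1, PER2, PER3) and the cryptochrome genes (CRY1, CRY2), whose proteins then repress that factor. The same factor switches on NR1D1 and NR1D2 (REV-ERB alpha and beta), nuclear receptors that repress ARNTL and close a second loop, and DBP, a transcription factor that carries the rhythm to output genes. In peripheral tissues ARNTL is therefore high at hours when NR1D1, NR1D2, DBP and the period genes are low. In the gut the clock is known for its part in the timing of epithelial cell division, motility and feeding responses.

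The identity of some probes limits what can be read. All 4 probes labelled DBP carry an accession that the RefSeq gene table of the rhesus macaque lists under RPL18, a ribosomal protein gene that lies 2 places from DBP in that table, with SPHK2 between them. They are therefore called the probes labelled DBP, and without them the set holds 11 probes of 8 genes. The accessions of CRY1 and of the brighter ARNTL probe are listed under those genes, and those of the other 9 probes are not in the table. NR1D1 overlaps THRA there, and whether its probe also detects THRA was not tested. All 15 probes were well above background on at least 2 arrays and entered the test. The probe for PER3 was well above background on 5 of 24 arrays and on 0 of the 4 controls, the dimmer PER2 probe on 18 and the CRY2 probe on 23 arrays (1 spot was marked as an outlier and left out).

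The arrays had 66.7% to 85% of probes well above background, and no probe was saturated. They lay on 6 slides with 4 positions each. Every control lay at position 1, and every array of days 7 and 12 at positions 3 and 4, so that for those days position and irradiation cannot be told apart. The arrays of day 4 after 6.7 Gy lay at positions 1 and 2, but all 4 after 7.4 Gy lay at position 2, where no control lay. For 7.4 Gy on day 4, irradiation and position can be told apart only through the arrays after 6.7 Gy. A difference between day 4 and a later day cannot be told apart from position either. Values are given as log2 signal minus the 75th percentile of the array, so that 0 is the 75th percentile, and levels of different probes cannot be set against each other. Markers of colon epithelium (7 of 9 listed genes measured, CDX2, VIL1 and LGALS4 among them) were well above background on all 24 arrays, except KRT8 on 23. Their summed linear signal, in multiples of the 75th percentile, was 577 to 734 in controls, 259 to 391 on day 4 after 6.7 Gy and 174 to 320 on day 4 after 7.4 Gy. It lay between 528 and 692 on days 7 and 12.

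Most clock gene probes showed no detectable change against control, and the same held for most of all probes tested. Counts of 0 or 1 among 15 probes are near the shares of all probes given below. A change was called where limma's Benjamini-Hochberg adjusted p, over all probes tested, was below 0.05 and the change was at least 2-fold. On day 4 after 6.7 Gy 0 of 15 member probes were called, beside 3.61% of all probes. On day 4 after 7.4 Gy 1 member probe, the dimmer PER2 probe, was called lower, beside 7.05% of all probes. No member probe was called on day 7 after 6.7 Gy or 7.4 Gy, beside 0.322% and 0.39% of all probes, or on day 12, beside 0.0183% and 0.0262%. At an unadjusted p below 0.05 the member counts were 4, 4, 1, 2, 2 and 3 in the same order, beside 25.9%, 33.9%, 9.62%, 11%, 7.12% and 6.88% of all probes. With no limit on the fold 0 member probes passed on days 7 and 12, beside 0.392% and 0.523% of all probes on day 7 and the same shares as before on day 12. The median log2 change of the 15 member probes was -0.11 and -0.37 on day 4 after 6.7 and 7.4 Gy, where that of all probes was -0.07 and -0.08. The member medians of day 7 were -0.26 and -0.14, beside -0.02 and 0.01. Those of day 12 were 0.07 and -0.14, beside 0.08 and -0.01. These member medians include the 4 probes labelled DBP, and medians of the clock gene probes without them may differ and were not taken. All 6 comparisons share the 4 controls.

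**Figure D1:**
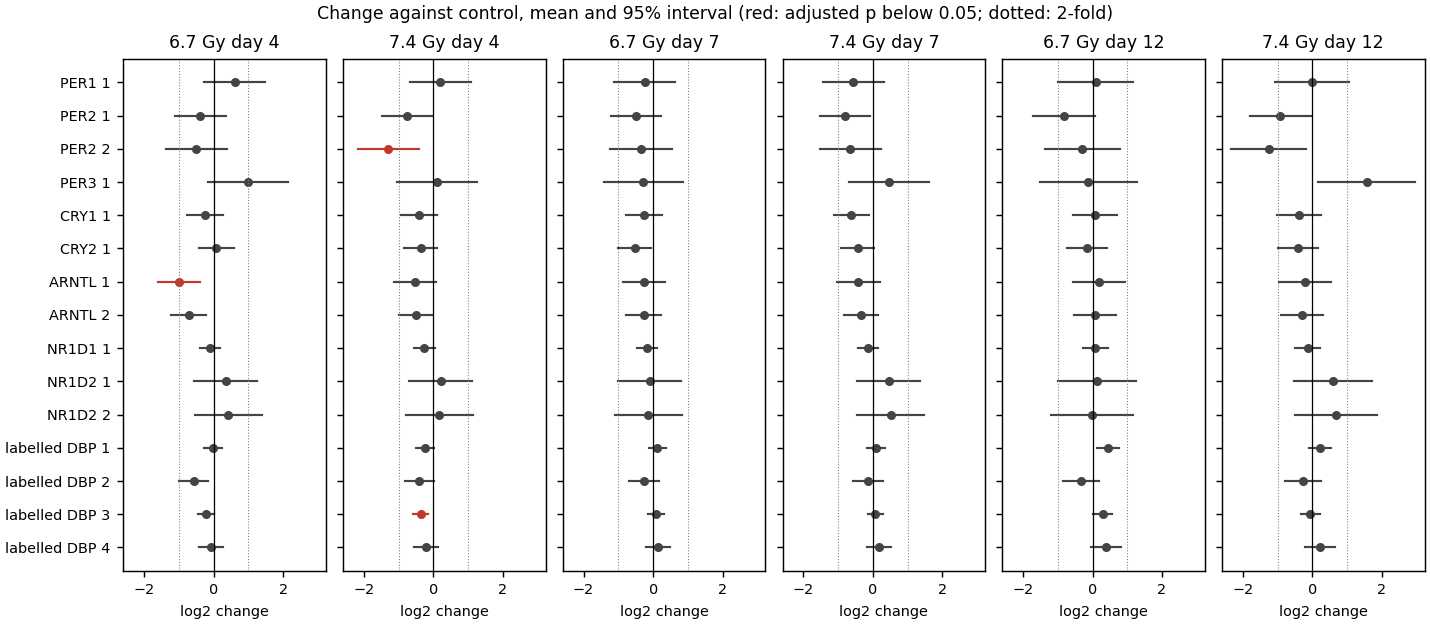
Log2 change against control of each of the 15 clock gene probes (rows, with the number of the probe by brightness) in the 6 irradiated groups (panels), with the 95% interval from limma; red marks an adjusted p below 0.05 and the dotted lines mark 2-fold. The red points are ARNTL probe 1 on day 4 after 6.7 Gy (-1.0), and PER2 probe 2 (-1.30) and the third probe labelled DBP (-0.37) on day 4 after 7.4 Gy.

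ARNTL, the activator of the loop, had a lower mean than the controls on day 4 after 6.7 Gy but was not called. Its brighter probe read 0.64, 1.27, 1.48 and 1.56 in the 4 controls and -0.67, 1.06, 7e-05 and 0.55 in the 4 animals. The lowest 3 irradiated animals lay under all 4 controls, while the other lay inside the range of the controls. These groups were without overlap for 0 of 15 member probes, beside 16% of all probes. The change was -1.0 on the log2 scale (SE 0.29), a 1.999-fold decrease that fell just short of the 2-fold limit, with an adjusted p of 0.0362 in limma. At an adjusted p below 0.05 with no limit on the fold, ARNTL was the only member probe past the test in this comparison, 1 of 15, beside 9.7% of all probes. The dimmer ARNTL probe changed by -0.72 (SE 0.24, adjusted p 0.0587 in limma). Values moved the same way within the 2 slides that held both groups, where the irradiated array was lower than the control on its slide by -0.64 and -0.71. At the array position of the controls, the mean of the 2 animals of this group differed from the 4 controls by -1.04. The adjusted p rose to 0.0962 with the slide as a block and to 0.0958 with the array position as a block. The test was passed under 8 of 15 alternative settings. The methods' t-test gave a p of 0.057 unadjusted and 0.253 after Benjamini-Hochberg. In limma the adjusted p was 0.124 under scaling to spike-in spots and 0.177 with the groups compared alone. With position and scan day as blocks together it was 0.076. Without control 2, 3 or 4 it was 0.0647, 0.0881 and 0.0954, and without the first or the third irradiated animal 0.117 and 0.0891, while without any other 1 of the 8 animals it was 0.0138 to 0.036.

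On day 4 after 7.4 Gy the brighter ARNTL probe read 0.30, 1.05, 0.58 and 0.86, with a change of -0.54 (SE 0.29, adjusted p 0.205 in limma), and the dimmer probe changed by -0.50 (adjusted p 0.139). Both groups overlapped the controls in value. On day 7 the brighter probe read 0.82 to 1.29 after 6.7 Gy and 0.37 to 1.08 after 7.4 Gy, and on day 12 it read 1.60 and 1.24 after 6.7 Gy and 1.27 and 0.81 after 7.4 Gy. Its changes against control on days 7 and 12 lay between -0.41 and 0.19, with adjusted p of 0.649 or more in limma. The deviations of the ARNTL probes from the group means followed each other closely over the 24 arrays (Pearson's r 0.907, permutation p 1e-05, Spearman's rho 0.891, permutation p 1e-05), where 1e-05 is the smallest value that the permutations can give. Adjusted over the 9 probe pairs of one gene, these were 4.5e-05 and 9e-05. Leaving out the 2 arrays farthest from the median gave r of 0.893.

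**Figure D2:**
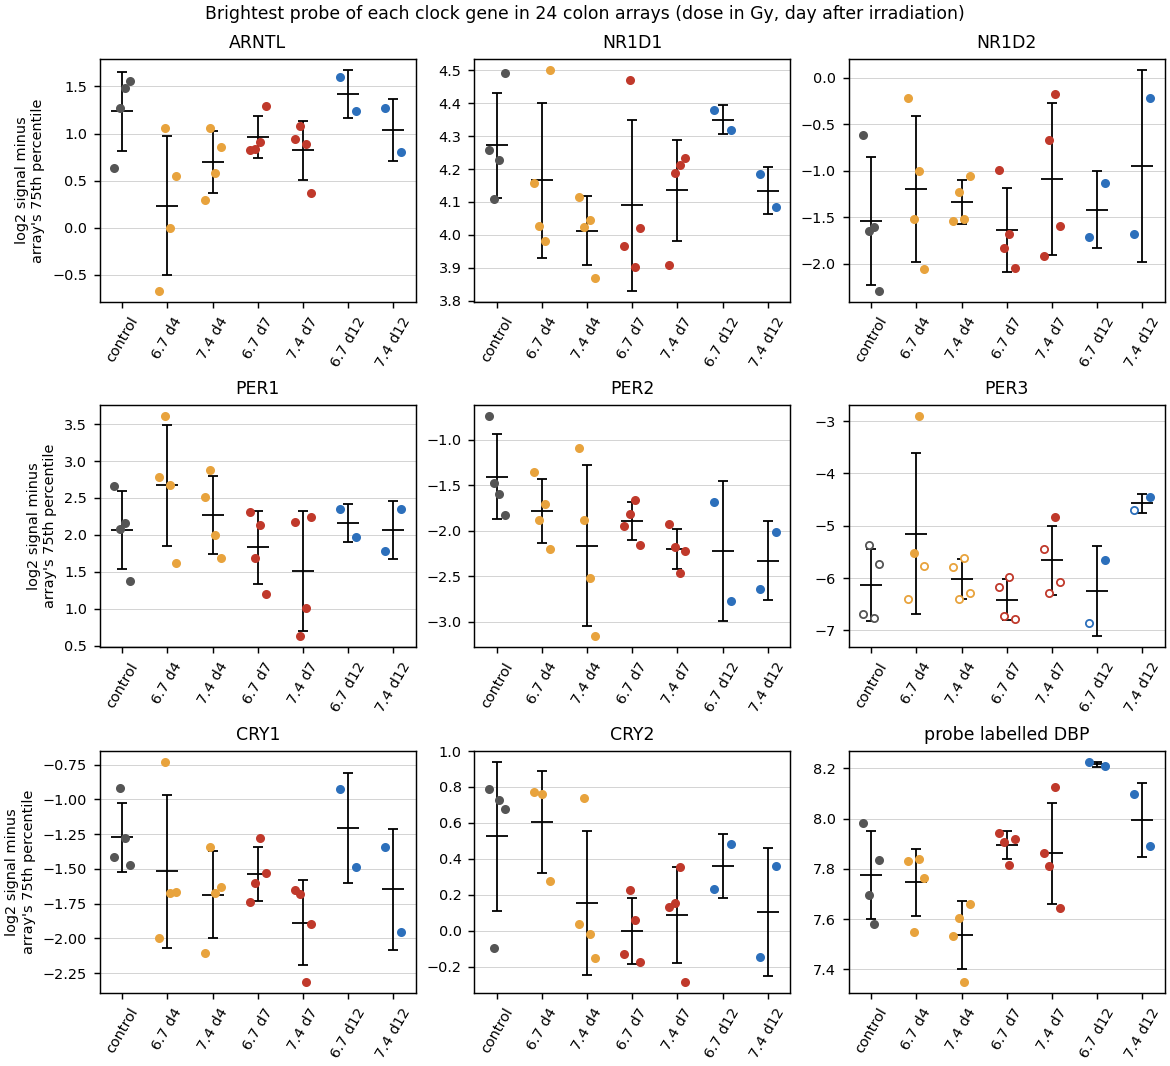
Log2 signal minus the 75th percentile of the array (y axis, a scale of its own for each gene) for the brightest probe of each gene on the 24 arrays, by group (x axis, dose in Gy and day); bars give the mean and SD, and open circles are arrays on which the probe was not well above background. For ARNTL 3 of the 4 animals on day 4 after 6.7 Gy, between -0.67 and 0.55, lie below all 4 controls.

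Among the period genes, which encode repressors of the loop, PER2 carried the lowest values against control. The dimmer PER2 probe read -3.92, -3.90, -3.78 and -5.06 in controls and -4.40, -5.04, -6.20 and -6.24 on day 4 after 7.4 Gy. The groups overlapped through the fourth control, which lay below the first and second irradiated animals, and the lowest 2 irradiated arrays were not well above background. The change was -1.30 (SE 0.42, 2.47-fold) with an adjusted p of 0.0343 in limma. The brighter PER2 probe, well above background on all 24 arrays, read -0.74, -1.47, -1.59 and -1.82 in controls and -1.08, -1.88, -2.52 and -3.16 on day 4 after 7.4 Gy. Its change of -0.76 (SE 0.35) had an adjusted p of 0.129 in limma.

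The PER2 call depended on the settings and on single animals. It was lost under quantile normalization (adjusted p 0.0742), scaling to the median (0.0504) or to spike-in spots (0.107). With normexp background correction the change was -0.60, under 2-fold, with an adjusted p of 0.0389. It was also lost with the slide, the array position or the scan day as a block. With blocks for both position and scan day the log2 change of the dimmer probe was -0.02. On the slide that held control 3 and the first irradiated animal the dimmer probe differed by -0.61 and the brighter one by 0.51, and on the slide of control 4 and the second animal they differed by 0.02 and -0.06. Without control 1, 2 or 3, or without the third or the fourth animal, the change was -1.05 to -1.22 and not called (adjusted p 0.0771 to 0.113), while without the first animal both PER2 probes were called, with log2 changes of -1.66 and -1.12. The 2 probes moved together within groups (r 0.732, permutation p 0.00254, adjusted 0.00762, and rho 0.684, permutation p 0.00559, adjusted 0.0126), with r of 0.614 without the 2 farthest arrays.

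In the other groups the brighter PER2 probe was below the mean of the controls, by -0.38 on day 4 after 6.7 Gy. For 6.7 and 7.4 Gy in turn the differences were -0.49 and -0.79 at day 7 and -0.82 and -0.92 at day 12. None of these passed the adjusted test (adjusted p 0.392 or more in limma). On day 7 after 7.4 Gy it read -1.92, -2.18, -2.46 and -2.22, all below the 4 controls. On day 12 it read -1.68 and -2.77 after 6.7 Gy and -2.63 and -2.02 after 7.4 Gy.

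PER1, the period gene known to respond quickly to light and to glucocorticoids, varied widely between animals of the same group. It read 2.66, 2.09, 2.16 and 1.38 in controls, 2.79, 3.61, 2.68 and 1.61 on day 4 after 6.7 Gy and 2.51, 2.87, 2.0 and 1.68 on day 4 after 7.4 Gy. On day 7 it read 2.30, 1.69, 2.13 and 1.2 after 6.7 Gy and 2.17, 0.62, 1.01 and 2.24 after 7.4 Gy. All groups overlapped the controls, and the 95% interval of the change on day 4 was -0.27 to 1.48 after 6.7 Gy and -0.68 to 1.07 after 7.4 Gy. The highest and lowest animal of the group on day 4 after 6.7 Gy were 4.00-fold apart, and those on day 7 after 7.4 Gy 3.07-fold. PER3 was not well above background on any control, on any array of day 4 after 7.4 Gy or on any of day 7 after 6.7 Gy. One animal on day 4 after 6.7 Gy stood at -2.90, while the other 3 of that group lay between -6.40 and -5.52. On day 12 after 7.4 Gy its values of -4.70 and -4.45 lay above those of all 4 controls, but only 1 of the 2 arrays was well above background, and no fold is given. PER3 and the brighter PER2 probe were the 2 of 15 member probes whose groups did not overlap there, beside 15.6% of all probes.

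The cryptochrome probes were measured on nearly all arrays and changed little. CRY1 read -1.42, -0.92, -1.28 and -1.47 in controls and -1.65, -1.68, -2.31 and -1.90 on day 7 after 7.4 Gy. These groups did not overlap, but the change of -0.62 (SE 0.24) had an adjusted p of 0.331 in limma. Groups that did not overlap were seen for 2 of 15 member probes in that comparison, CRY1 and the brighter PER2 probe, beside 5.75% of all probes. CRY2 read 0.79, -0.10, 0.73 and 0.68 in controls and -0.13, 0.23, 0.06 and -0.17 on day 7 after 6.7 Gy, with a change of -0.53 (SE 0.22, adjusted p 0.454 in limma). The second control lay inside the range of the irradiated animals, and the other 3 lay above it. On day 7 after 6.7 Gy no member probe had groups that did not overlap, beside 7.17% of all probes. Neither cryptochrome passed the adjusted test in any of the 6 comparisons.

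The probes for the nuclear receptors of the second loop differed in how steady they were, and whether the NR1D1 probe also detects THRA was not tested. NR1D1 read 4.26, 4.11, 4.23 and 4.49 in controls and lay between 3.87 and 4.50 on all 20 irradiated arrays. Its changes against control ran from -0.26 to 0.08, and the change farthest from 0, on day 4 after 7.4 Gy, had a 95% interval of -0.55 to 0.04. NR1D2 read -0.62, -1.65, -1.61 and -2.29 in controls, -0.22, -1.52, -1.0 and -2.06 on day 4 after 6.7 Gy and -1.92, -0.67, -0.17 and -1.60 on day 7 after 7.4 Gy. The highest and lowest animals of these 3 groups were 3.17-fold, 3.58-fold and 3.36-fold apart. Its second probe followed the first within groups (r 0.964, permutation p 1e-05, adjusted 4.5e-05, and rho 0.923, permutation p 3e-05, adjusted 0.000135), with r of 0.955 without the 2 farthest arrays. The changes of NR1D2 against control were between -0.13 and 0.68 over both probes, with adjusted p of 0.615 or more in limma.

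Of the probes labelled DBP, the brightest read 7.98, 7.70, 7.58 and 7.84 in controls and 7.53, 7.60, 7.35 and 7.66 on day 4 after 7.4 Gy, with a change of -0.24 (SE 0.12, adjusted p 0.175 in limma). The second read 8.0, 7.42, 7.82 and 8.44 in controls and 6.87, 7.47, 7.57 and 7.45 on day 4 after 6.7 Gy. The second control lay below 3 of these 4 animals, and the change was -0.58 (SE 0.20, adjusted p 0.0765 in limma). Without that control it was -0.75 (adjusted p 0.03). The third read 6.41, 6.03, 6.11 and 6.29 in controls and 5.85, 5.94, 5.82 and 5.74 on day 4 after 7.4 Gy. These groups did not overlap, 1 of 15 member probes in this comparison beside 23.5% of all probes. The change of the third probe was -0.37 (SE 0.11) with an adjusted p of 0.019 in limma, and it was past the test with no limit on the fold together with the dimmer PER2 probe, 2 of 15, beside 20% of all probes. Under scaling to spike-in spots that change was -0.08 (adjusted p 0.708), and without control 1 or 4 or the fourth irradiated animal the adjusted p was 0.0607, 0.0546 and 0.0545. On day 12 after 6.7 Gy the first and the third probe, with 8.22 and 8.21 and with 6.46 and 6.53, did not overlap the controls, 2 of 15 member probes beside 17.7% of all probes. Within groups the deviations of the 4 probes had r of 0.171 to 0.574 over their 6 pairs, of which 3 passed an adjusted permutation p of 0.05 (0.0277, 0.0482 and 0.0498).

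Between days, with the doses pooled, no member probe changed 2-fold past the adjusted test, beside 4.44% of all probes for day 7 against day 4, 6.51% for day 12 against day 4 and 0.118% for day 12 against day 7. At an unadjusted p below 0.05 there were 4, 5 and 1 member probes, beside 38.1%, 37.3% and 9.6% of all probes. With no limit on the fold, 2 of 15 member probes passed from day 4 to day 7, beside 26% of all probes, and 4 from day 4 to day 12, beside 24.5%, and 0 from day 7 to day 12, beside 0.191%. Those of day 7 were the first and the third probe labelled DBP, higher by 0.24 and 0.37. The first of these was lost under 9 of 13 alternative settings, kept in only 2 of 16 fits with an array left out, and stood at 0.067 (adjusted p 0.638) under spike-in scaling. The third was lost under 1 of 13, spike-in scaling, with 0.20 (adjusted p 0.129). Those of day 12 were 3 probes labelled DBP, higher by 0.41 to 0.46, and the brighter ARNTL probe. With normexp background correction the first, the third and the fourth probe labelled DBP were not past the test (adjusted p 0.155, 0.107 and 0.0577), and the fourth was kept in 7 of 12 fits with an array left out. ARNTL was higher on day 12 than on day 4 by 0.76 (SE 0.25, adjusted p 0.0335 in limma), with means of 1.23 in 4 animals and 0.47 in 8 animals. The dimmer ARNTL probe was higher by 0.49 (adjusted p 0.0835). The adjusted p of the brighter probe was 0.0631 with the slide as a block and 0.0513 with the scan day as a block, and 0.0517 to 0.141 without the third animal on day 4 after 6.7 Gy, the first or the third on day 4 after 7.4 Gy, either on day 12 after 6.7 Gy or the first on day 12 after 7.4 Gy. PER1 was lower on day 7 than on day 4 by -0.80 (SE 0.30), with an adjusted p of 0.0532. Over the same days the epithelial marker sum went from 174 to 391 on day 4 to 528 to 692, and its part in these differences was not tested.

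No difference between the doses was detected in any member probe. No member probe and 0% of all probes passed the adjusted test for 7.4 against 6.7 Gy on day 4, day 7 or day 12. At an unadjusted p below 0.05 there were 0, 0 and 2 member probes, beside 6.17%, 1.86% and 3.66% of all probes. The difference of ARNTL between the doses on day 4 was 0.46 for the brighter probe, whose 95% interval of -0.15 to 1.07 includes 0, so the lower level after 6.7 Gy than after 7.4 Gy was not detectable as a difference.

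Member probes differed in how far animals of one group lay apart. The residual SD, the spread of the log2 signal around the group means with 17 degrees of freedom, was 0.653 and 0.693 for the NR1D2 probes, 0.63 for PER1 and 0.512 for PER2. Among the 25370 probes well above background on all 24 arrays, whose quartiles were 0.209, 0.277 and 0.381, these lay at the percentiles 95.6, 96.4, 94.9 and 90. ARNTL stood at 0.427 and 0.339, the percentiles 82.1 and 66.9, and CRY1 at 0.353, the percentile 69.9. NR1D1 was on the other side of the median, with 0.181 at the percentile 14.9. The probes labelled DBP had 0.113 to 0.287, the percentiles 0.741 to 53.3. CRY2, missing on 1 array, had 0.320, and PER3 and the dimmer PER2 probe had 0.825 and 0.627 with spots near background. With normexp background correction, which compresses dim values, the spread was 0.343 for PER3, 0.266 for the dimmer PER2 probe and 0.393 for the dimmer NR1D2 probe.

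**Figure D3:**
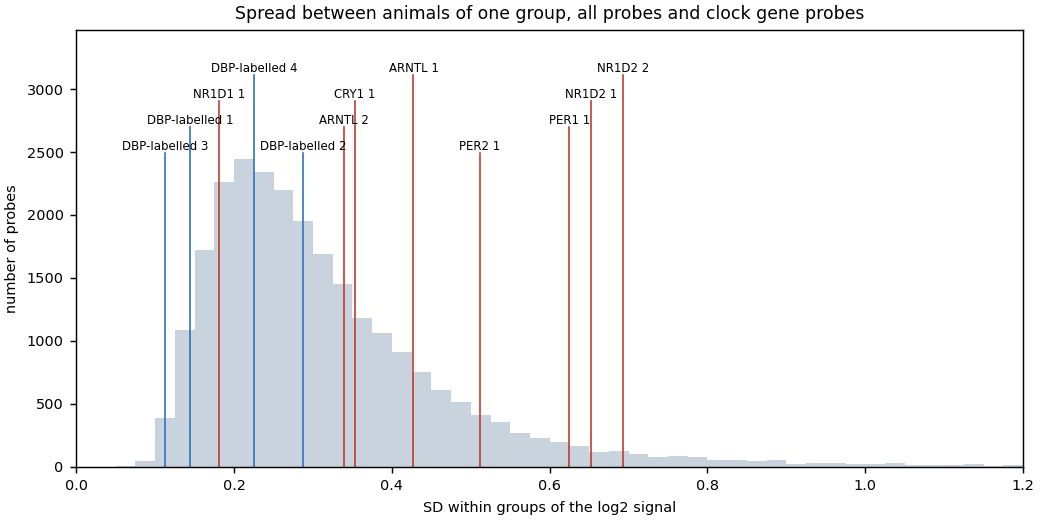
Histogram of the SD within groups of the log2 signal (x axis) for the 25370 probes well above background on all 24 arrays (y axis, number of probes), with lines at the clock gene probes; red lines are named clock genes and blue lines the probes labelled DBP. PER1 (0.63) and both NR1D2 probes (0.653 and 0.693) lie near or beyond the 95th percentile of 0.628, and NR1D1 (0.181) lies below the median of 0.277.

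To see how members vary together between animals of a group, the deviations of ARNTL from its group means were compared with those of the other 8 members. NR1D2 tended to be lower where ARNTL was higher, with r of -0.511 (permutation p 0.0463) and rho of -0.479 (permutation p 0.0538), and without the 2 arrays farthest from the ARNTL median r was -0.402. PER2 had r of -0.452 (permutation p 0.0323) and rho of -0.433 (permutation p 0.0725), with r of -0.460 without those arrays. CRY1 tended to be higher where ARNTL was higher, with r of 0.673 (permutation p 0.00852) and rho of 0.582 (permutation p 0.0132), and r was 0.467 without those arrays, the first and second animals on day 4 after 6.7 Gy. After adjustment over the 8 relations none passed 0.05. The adjusted permutation p of r was 0.0682 for CRY1 and 0.123 for NR1D2 and for PER2. PER1 had r of -0.224 (permutation p 0.471) and rho of -0.310 (permutation p 0.219), and its r was -0.568 without those arrays. CRY2, PER3, NR1D1 and the brightest probe labelled DBP had r between -0.176 and 0.080, each with a permutation p of 0.492 or more, and between -0.29 and 0.086 without those arrays. With slide means also taken out, r for NR1D2 was -0.699 and its adjusted permutation p 0.112. With the other ARNTL probe, an alternative chosen after seeing the data, r for PER2 was -0.619 and its adjusted permutation p 0.0243. These were the strongest values of 6 alternative settings, and the weakest r was -0.392 for NR1D2 and -0.280 for PER2.

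The genes whose deviations were most like those of ARNTL, among 9844 named genes that are no members and were well above background on all 24 arrays, were SERAC1 (r 0.839), CDK20 (0.833), RELA (0.827), NPAS2 (0.805) and TNRC6A (0.783). NPAS2 encodes a paralogue of CLOCK that pairs with ARNTL, and RELA a subunit of the transcription factor NF-kB. These r values come from 24 arrays that also share slides, and they describe the order of genes with no test. TEF, chosen after its values were seen, is a transcription factor of the same family as DBP, and it lay near the other end of the order, with r of -0.656 to ARNTL at rank 9834 of 9844. The genes most like the brightest probe labelled DBP were BCAT2 (r 0.82), MCCC1 (0.79), IFI27L2 (0.788), CCDC64B (0.772) and ETHE1 (0.769), while TEF had r of 0.429 to it.

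The same search was made for NR1D1, NR1D2 and PER1 after their spread had been seen. The genes most like NR1D1 were FAM89B (r 0.87), ADAMTS14 (0.868), VPS52 (0.862), ADD2 (0.826) and RNF208 (0.825), none of them a listed clock gene. Among the other clock genes USP2 came highest for NR1D1, with r of 0.621 at rank 109, while TEF and CIART had r of -0.225 and -0.224. The gene most like NR1D2 was TEF (r 0.864), and CIART, which encodes a repressor of the loop that is itself under the control of the clock, had r of 0.797, after SMAD2 (0.832) and PPP2CB (0.808). HLF, the third member of the DBP and TEF family, had r of 0.542 to NR1D2 at rank 308. The gene that came second to PER1 was TSC22D3 (r 0.769), a glucocorticoid-induced gene, after ADGRL2 (0.775). NOCT, another of the listed clock genes, had r of 0.707 to PER1 at rank 15, and BHLHE40 had 0.63 at rank 67.

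**Figure D4:**
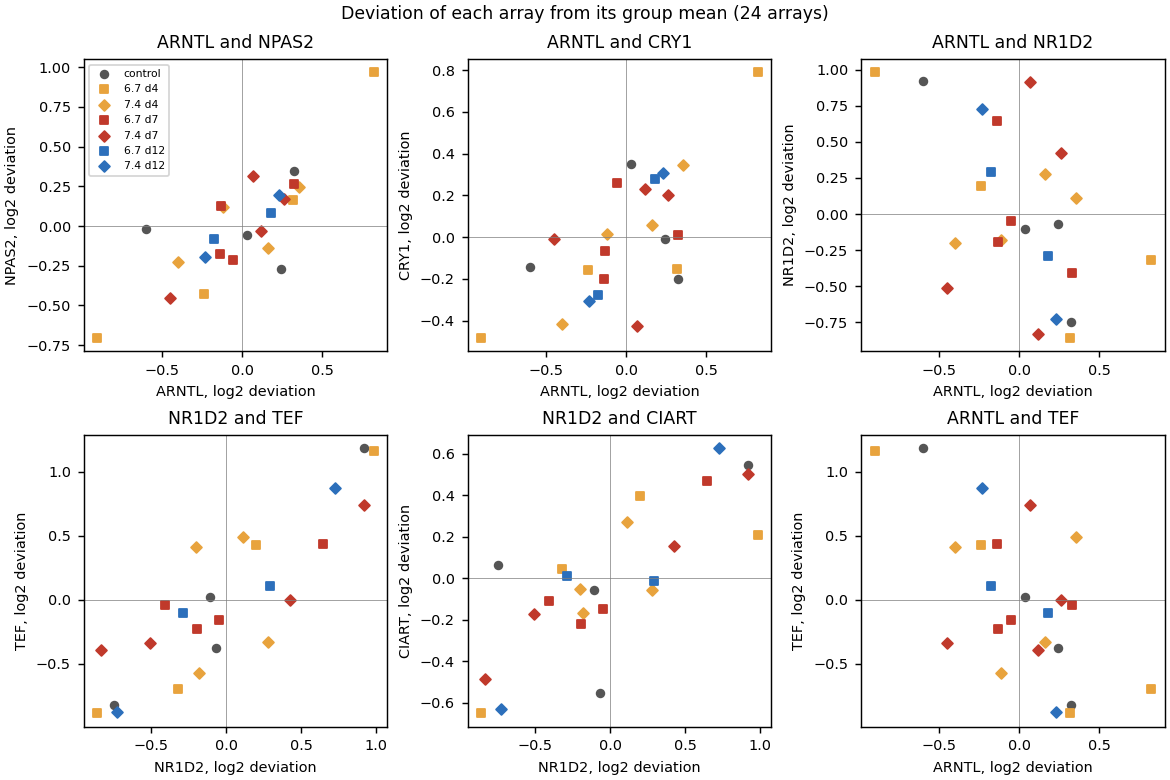
Deviation of each of the 24 arrays from its group mean (log2) for 6 pairs of clock genes; grey circles are controls, squares 6.7 Gy and diamonds 7.4 Gy, with day 4 in orange, day 7 in red and day 12 in blue. NPAS2 and CRY1 tended to rise with ARNTL (r 0.805 and 0.673), TEF and CIART to rise with NR1D2 (r 0.864 and 0.797), and TEF to fall with ARNTL (r -0.656). The relations of ARNTL with CRY1 and with NR1D2 (r -0.511) did not pass the adjusted permutation test. NPAS2, TEF and CIART were taken from the order of genes, with no test.

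Among clock genes outside the set, BHLHE40 rose on day 4 after both doses. Of 22 other clock genes listed, 21 were tested, each by its brightest probe, CIART and CIPC under older names, and NAMPT was not found. BHLHE40, a repressor of ARNTL and CLOCK activity that is also induced by hypoxia and stress, rose after both doses. It read -1.58, -2.0, -2.0 and -2.04 in controls, -0.25, 0.19, -0.80 and -1.16 on day 4 after 6.7 Gy and -0.39, -0.77, -0.16 and -1.38 on day 4 after 7.4 Gy. All 8 irradiated animals lay above the controls, with changes of 1.39 (SE 0.27, adjusted p 0.00416) and 1.23 (SE 0.27, adjusted p 0.00365) in limma. Groups did not overlap for 16% and 23.5% of all probes in these comparisons. The BHLHE40 call after 6.7 Gy was lost under 1 of 15 alternative settings, the methods' t-test after Benjamini-Hochberg (adjusted p 0.0785). After 7.4 Gy, CIART rose by 1.04 (SE 0.29, adjusted p 0.0156) and CIPC, which encodes a protein that binds CLOCK, fell by 1.13 on the log2 scale (SE 0.36, adjusted p 0.0333). The CIPC call was lost under 8 of 14 alternative settings, and without control 1 or 3 or the first, the third or the fourth irradiated animal (-0.80 to -1.17, adjusted p 0.0512 to 0.12). The CIART call was lost under 3 of 15, and without control 3 (0.85) or the second irradiated animal (0.95). With array position as a block the adjusted p in limma was 0.442 for CIPC and 0.12 for CIART. USP2, which encodes a deubiquitinating enzyme, was not called by its brightest probe, but its dimmer probe was lower on day 4 after 6.7 Gy. The dimmer probe read -4.49, -5.06, -5.02 and -4.90 in controls and -7.22, -5.64, -7.04 and -7.46 in these animals, of which 1 of 4 was well above background. The groups did not overlap, and the change was -1.97 (SE 0.37, adjusted p 0.00337 in limma), beside -0.27 (adjusted p 0.265) for the brightest probe, so the probes disagree in size. On day 4 after 7.4 Gy the dimmer probe changed by -0.86 (adjusted p 0.103). By the brightest probes, the other clock genes were called in 1 of 21 cases after 6.7 Gy and 3 of 21 after 7.4 Gy on day 4, beside 3.61% and 7.05% of all probes, and in 0 of 21 in each group of days 7 and 12. At an unadjusted p below 0.05 the counts for 6.7 and 7.4 Gy were 5 and 7 at day 4, beside 25.9% and 33.9% of all probes, 4 and 2 at day 7, beside 9.62% and 11%, then 2 and 2 at day 12, beside 7.12% and 6.88%. On day 4 both counts are near the share of all probes. The median change of the list was between -0.12 and -0.01 in the 6 comparisons.

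BHLHE40 also differed between days. From day 4 to day 7, with the doses pooled, it fell by 1.46 on the log2 scale (SE 0.19, adjusted p 4.58e-05 in limma), and from day 4 to day 12 it fell by 1.76 (adjusted p 5.82e-05). Surface colonocyte markers (7 of 7 measured, CA1 and SLC26A3 among them) moved over the same groups. Their summed signal was 373 to 678 in controls and 72.1 to 232 and 26.7 to 206 on day 4 after 6.7 and 7.4 Gy. It was 89.4 to 425 on day 7 and 425 to 560 on day 12. On day 4, 4 and 5 of the 7 were called lower, beside 3.61% and 7.05% of all probes. Colon epithelium markers were called lower in 4 of 7 cases after each dose, and red blood cell markers in 2 and 1 of 4. Of 4 endothelium markers 1 was called higher, after 7.4 Gy only. No marker of T or B lymphocytes, macrophages, smooth muscle or enteric neurons and glia was called on day 4. On day 4 after 7.4 Gy 2 of 6 goblet cell markers were called lower (summed signal 55.3 to 309, beside 345 to 460 in controls), 2 of 6 fibroblast markers higher (239 to 343, beside 106 to 257) and 2 of 3 neutrophil markers measured higher (0.942 to 10.3, beside 0.595 to 0.715). After 6.7 Gy 0 markers of these 3 lists were called. The part of these cell types in the changes of ARNTL, PER2 and BHLHE40 was not tested.

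**Figure D5:**
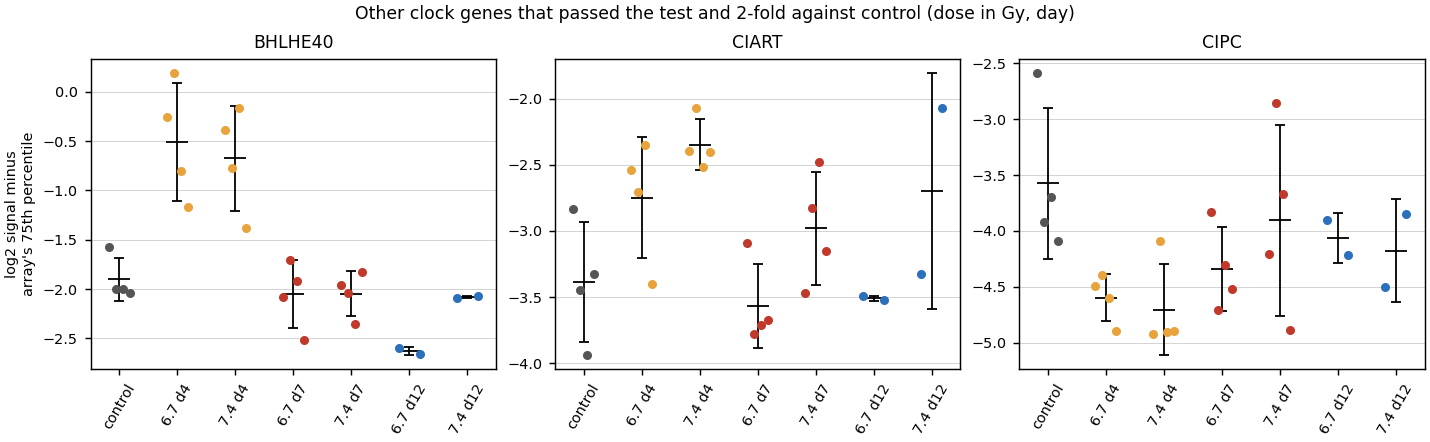
Log2 signal minus the 75th percentile of the array (y axis, a scale of its own for each gene) of 3 clock genes outside the set in the 7 groups (x axis, dose in Gy and day), 1 point for each array with the mean and SD. On day 4 BHLHE40 lies above all 4 controls after both doses (changes of 1.39 and 1.23).

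Glucocorticoid-responsive genes, which follow the daily cortisol rhythm and stress, were measured as a comparison for PER1. Of 11 listed, 8 were tested, and the 4 genes named here were chosen after their values were seen. By their brightest probes, 2 of the 8 were called higher on day 4 after 6.7 Gy, beside 3.61% of all probes. After 7.4 Gy 1 was called higher on day 4, beside 7.05%. On day 7 after 7.4 Gy 1 was called higher and 1 lower, beside 0.39%, and on day 12 1 higher, beside 0.0262%. After 6.7 Gy 0 were called on days 7 and 12, beside 0.322% and 0.0183%. PDK4, which encodes an inhibitor of pyruvate oxidation, rose on day 4 by 1.30 and 1.91 after 6.7 and 7.4 Gy (adjusted p 0.0141 and 0.000422 in limma). It was also called higher after 7.4 Gy on day 7 (1.5, adjusted p 0.0346) and day 12 (2.21, adjusted p 0.0498). The day 7 call was lost without control 2 or 4 or the first, the second or the fourth animal (adjusted p 0.0633 to 0.118), and the day 12 call without any 1 control or the second animal (0.0741 to 0.361). The second PDK4 probe was called on day 4 after 7.4 Gy (1.95, adjusted p 0.00593) but not after 6.7 Gy (1.34, 0.0683), nor after 7.4 Gy on day 7 (1.36, 0.23) or day 12 (2.09, 0.289). DUSP1, a phosphatase gene, rose by 1.23 on day 4 after 6.7 Gy (adjusted p 0.0284), a call lost without control 3 or 4 or the first or second animal (0.0566 to 0.0884). TSC22D3 fell by 1.05 on the log2 scale on day 7 after 7.4 Gy (adjusted p 0.0259), a call lost without control 1, 2 or 3 or the first, the second or the fourth animal (0.0543 to 0.0752). A second probe for MT2A, a metallothionein gene, was called higher on day 4 after 6.7 and 7.4 Gy (1.75 and 1.95, adjusted p 0.0275 and 0.00879), while its brightest probe changed by 0.27 and 0.32 (0.481 and 0.342). Values of the second probe were missing for controls 3 and 4, the second animal after 6.7 Gy and the third after 7.4 Gy. Its calls on day 4 therefore rest on 2 controls and 3 animals after each dose. The median change of the list was between -0.22 and 0.33 in the 6 comparisons. At an unadjusted p below 0.05 the counts on day 4 were 3 and 3 of 8, beside 25.9% and 33.9% of all probes. On day 7 they were 3 and 4, beside 9.62% and 11%, and on day 12 1 and 2, beside 7.12% and 6.88%.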

How the data were processed

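Intensities were extracted by the authors with Feature Extraction 11.0.1.1, per the file headers, which subtracted the background and wrote a processed signal intensity for each spot on a probe layout of rheMac2. The deposited raw intensity table equalled these values, and the authors' normalized log2 table, scaled to the 75th percentile and centred on the median of each probe, was used as an alternative. Control spots were left out, outlier spots were set to missing, and spots of one probe were averaged. From each log2 value the 75th percentile of its array was then subtracted. For the 38220 probes well above background on at least 2 arrays, limma 3.58.1 (R 4.3.3) fitted 1 mean per group to the 24 arrays together. Where a gene outside the set had several probes, the brightest stood for it. Relations used 100000 permutations within groups, two-sided. The fit was tested on simulated data. The rule for naming genes covered all probes of the members, the other clock genes called against control, and the 5 genes most like ARNTL and DBP. Among those named outside that rule were the genes most like NR1D1, NR1D2 and PER1, the dimmer USP2 probe and the glucocorticoid-responsive genes. The members and lists were chosen with earlier results of these data known. The number of arrays limits the precision, above all on day 12. One treatment text names a different final day, and the labels of the samples were used. Replicate numbers did not pair the arrays: deviations of same-numbered arrays had a median r of 0.00383 (-0.229 to 0.236), while those on the same slide had 0.126. No 2 arrays were identical. One gene of the list of other clock genes is not reported here.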

Additional observations from a re-analysis of the deposited data

Results flagged for a closer look

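In 6 of 74 groups of 4 arrays the highest or lowest animal stood apart from the others by Dixon's test, where chance gives about 1 in 20. They were the fourth control for the dimmer PER2 probe (-5.06), the second control for CRY2 (-0.10), the first control for the dimmer ARNTL probe (-1.93), the first animal on day 7 after 7.4 Gy for NR1D1 (3.91), and the first animals on day 4 and day 7 after 6.7 Gy for the second probe labelled DBP (6.87 and 7.99).

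Days after irradiation differed, by the test of the difference itself in limma, for the brighter ARNTL probe from day 4 to day 12 (0.76) and for probes labelled DBP. The first and the third of these were higher on day 7 than on day 4 (0.24 and 0.37), the call of the first probe being lost under 9 of 13 alternative settings and kept in only 2 of 16 fits with an array left out, and the first, the third and the fourth were higher on day 12 than on day 4 (0.46, 0.41 and 0.44). Among the other clock genes, BHLHE40 was lower on days 7 and 12 than on day 4 (-1.46 and -1.76). Day 4 and the later days lay at different array positions, so that these differences and position cannot be told apart.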

How the results depend on the processing

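Alternatives changed the background correction, the scaling, the filter on dim probes, the fold limit, blocks for slide, array position and scan day, the table of values, the test, and the arrays in the fit. With array position as a block, changes on days 7 and 12 against control or day 4 could not be fitted. The count of member probes called on day 4 after 6.7 Gy went from 0 to 1 under quantile normalization, in the authors' table and with no limit on the fold, each time ARNTL, and was 0 to 1 with each array left out. On day 4 after 7.4 Gy it went from 1 to 0 under normexp, quantile, median and spike-in scaling, with only probes well above background on all 24 arrays, with slide, position, scan day or position and scan day as blocks, under the methods' t-test at an unadjusted p and after Benjamini-Hochberg, and with the groups compared alone. It was 2 with no limit on the fold and 0 to 2 with each array left out. On day 12 after 7.4 Gy it was 1 (PER3) under the unadjusted t-test. With no limit on the fold it was 2 from day 4 to day 7 and 4 from day 4 to day 12. Leaving out the probes labelled DBP, an alternative chosen after seeing the data, changed no count at the 2-fold limit. It was not applied to the median changes of the member probes or to the counts of 2 or 4 with no limit on the fold. These include probes labelled DBP.

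Under normexp the spread was 0.393 for the dimmer NR1D2 probe, 0.266 for the dimmer PER2 probe and 0.343 for PER3. The r of ARNTL with CRY1 was 0.731 under spike-in scaling (adjusted permutation p 0.0362) and 0.511 to 0.732 with each array left out. With the other ARNTL probe r with PER2 was -0.619. Over 6 alternative settings r ran from 0.470 to 0.731 for CRY1, from -0.619 to -0.280 for PER2 and from -0.699 to -0.392 for NR1D2. Other ranges with each array left out were -0.617 to -0.358 for NR1D2, -0.546 to -0.360 for PER2, -0.589 to -0.136 for PER1, -0.391 to 0.133 for PER3, -0.056 to 0.210 for CRY2, -0.149 to 0.122 for NR1D1 and -0.348 to 0.036 for the probe labelled DBP. Signs turned for PER3 under normexp (0.0086), spike-in scaling (0.035), slide means (0.137) and the other probe (0.023), for NR1D1 under quantile normalization (0.070), spike-in scaling (0.173) and the other probe (0.113), for the probe labelled DBP under spike-in scaling (0.028), and for CRY2 with slide means (-0.149) and the other probe (-0.032). Of the changes, the third probe labelled DBP turned to 0.018 under spike-in scaling (day 4, 6.7 Gy), the brighter PER2 probe to 0.049 with position and scan day as blocks (day 4, 7.4 Gy) and the dimmer PER2 probe to 0.36 under normexp (day 12, 7.4 Gy). Of 74 changes with an unadjusted p of 0.05 or more, 39 turned sign under some alternative. Under the alternatives that kept an adjusted p and the 2-fold limit, 0 of them were called.

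Spike-in scaling put the median change of all probes at 0.17 and 0.21 (6.7 and 7.4 Gy) on day 4, and at 0.44 and 0.21 on day 12, and the share of calls that were higher on day 4 at 80.8% and 78.2%, beside 50.7% and 47.7%. Calls over all probes on day 4 were 1378 and 2695, but 716 and 1426 under normexp. The replicate number as a block left the counts of 0 and 1 member probes on day 4 as they were. It changed 3 other calls, of the first probe labelled DBP on day 7 against day 4 (adjusted p 0.0605), the fourth on day 12 against day 4 (0.0565) and PDK4 on day 12 after 7.4 Gy (0.0859). The causes were not tested. Signal near background limits PER3 and the dimmer PER2 probe, and 2 animals a group limit day 12.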
